A study of Mus musculus with 8 samples.

Results

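Toll-like receptors are membrane proteins with which macrophages detect microbial molecules. Those at the cell surface bind lipids and proteins of the microbial envelope, and those in endosomes bind nucleic acids of microbes or of ingested cells. After binding, the adaptors Myd88 and Ticam1 (TRIF) pass the signal to kinases that activate NF-kappaB and interferon regulatory factors. The 10 genes described here are Tlr1 to Tlr9 and Tlr13, taken by name out of 55421 genes in the expression table. Of these, 5 act mainly at the cell surface (Tlr1, Tlr2, Tlr4, Tlr5 and Tlr6) and 5 in endosomes (Tlr3, Tlr7, Tlr8, Tlr9 and Tlr13).

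Their transcripts were measured by RNA sequencing in primary macrophages grown from mouse bone marrow, at day 7 of differentiation. There were 4 libraries of the genotype Baf60a KO and 4 of the genotype WT, and the series title names C57 mice for both. Baf60a is the protein of Smarcd1, a subunit of SWI/SNF chromatin remodelling complexes, and the comparison shows which receptor transcripts differed where it was knocked out. The sources used here give neither the deleted part of Smarcd1 nor whether libraries came from separate animals or cultures, and the p-values therefore speak only of the scatter among these libraries, part of which may be technical. Values are TPM, transcript abundance per unit of gene length, brought to a common sum for each library, so levels of different genes can be set side by side. The depth of single libraries is unknown.

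Smarcd1 (mm10 chromosome 15, 99702129 to 99713991) had 10.8, 10.3, 10.9 and 9.91 TPM in the 4 Baf60a KO libraries, against 16.3, 14.3, 14.8 and 14.01 TPM in the 4 WT libraries. It fell in KO, with a log2 fold change of -0.47 (SE 0.061, limma adjusted p = 0.00756), and a level for the whole gene does not show which exons remained. Between 13727 and 14027 genes had more than 1 TPM in a library. Processed pseudogenes took 12.0% and 12.2% of the TPM of WT replicates 3 and 4, against 6.78% to 8.38% in the other 6 libraries, so calls that were lost without those 2 libraries are named below. The macrophage markers Cd68 (1322 to 1823 TPM), Adgre1 (249 to 323 TPM) and Csf1r (90.8 to 122 TPM) were present in all 8 libraries. Siglech, a marker of plasmacytoid dendritic cells, which are known for high Tlr7 and Tlr9, reached at most 0.18 TPM. The stromal marker Col1a1 was at 1431 to 1939 TPM.

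Across the 8 libraries Tlr13 stood above the other receptors. Its mean level was 29.5 TPM, and its lowest library (21.5 TPM) lay above the highest value of any other member. A middle group followed, in the order Tlr8 (mean 7.19 TPM), Tlr6 (7.10 TPM), Tlr7 (6.87 TPM), Tlr4 (5.93 TPM) and Tlr9 (5.59 TPM). Neighbours in this group overlapped, and none stood above the next in more than 6 of 8 libraries. Tlr1 (3.56 TPM), Tlr2 (3.08 TPM) and Tlr3 (2.13 TPM) came next. Tlr9 was above Tlr1, and Tlr2 above Tlr3, in 8 of 8 libraries, although the ranges of both pairs overlapped, while Tlr1 was above Tlr2 in 4 of 8. Tlr5, the receptor for bacterial flagellin, was lowest at 0.20 to 0.61 TPM (mean 0.376 TPM), below every value of Tlr3. The order within Baf60a KO was the same as over all libraries. Within WT, 5 of the 10 members kept their rank, Tlr6 and Tlr7 stood above Tlr8, and Tlr2 stood above Tlr1.

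**Figure D1:**
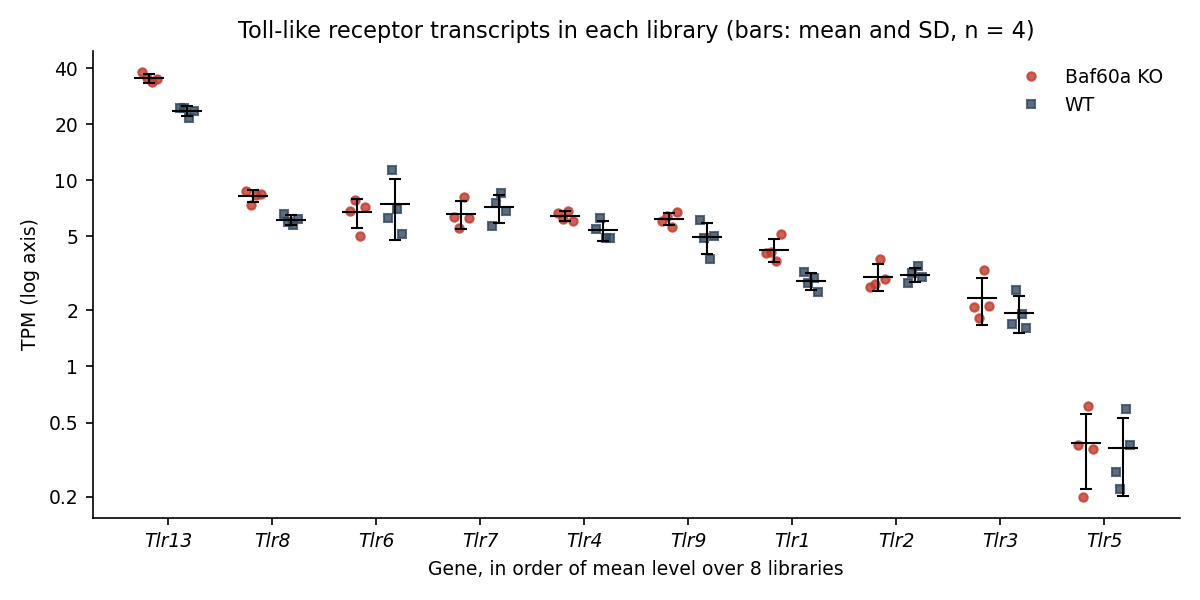
Level of each Toll-like receptor gene in TPM on a log axis, with 4 Baf60a KO libraries (circles) left of 4 WT libraries (squares), and bars for the mean and SD. Tlr13 lies between 21.5 and 38.2 TPM and Tlr5 between 0.20 and 0.61 TPM, and KO lies wholly above WT for Tlr13, Tlr8 and Tlr1.

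The level summed over the 10 receptors was 77.5 to 82.1 TPM in Baf60a KO (mean 79.6 ± 1.93, SD, n = 4) and 59.3 to 69.5 TPM in WT (mean 63.0 ± 4.56, SD, n = 4). Tlr13 made up 44.5% ± 1.82 of that sum in KO and 37.5% ± 2.34 in WT (SD, n = 4 each). The share of Tlr13 was 42.5% to 46.5% in KO and 35.4% to 39.8% in WT, so the groups did not overlap. The other 9 receptors summed to 42.3 to 45.4 TPM in KO and 35.7 to 44.9 TPM in WT, and here the groups did overlap. These sums are descriptions and were not tested. Of the other mouse receptors of the family, Tlr11 was listed at 0 in all libraries and Tlr12 at no more than 0.01 TPM.

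Of the 9 receptors above the filter on low values (more than 1 TPM in at least 4 libraries), 3 rose in Baf60a KO, 0 fell and 6 did not pass the test. All 9 were above 1 TPM in every library of both groups, so the filter favoured neither group, and Tlr5 was not tested. Over all 13933 genes tested, 4.40% were called higher in KO, 1.21% lower and 5.61% in either direction, at a limma adjusted p under 0.05. All KO libraries lay above all WT libraries for 3 of the 9 receptors and below them for 0, against 11.9% and 3.96% of all genes tested. The median log2 fold change, KO over WT, was 0.23 for the 9 receptors and 0.03 for all genes tested. Without WT replicates 3 and 4 the median of the receptors was 0.12, and Tlr13 was the 1 receptor called. In that setting 201 of all genes rose and 171 fell, with a median of 0.01 over all genes tested. The split of all calls depended on scaling: 613 genes rose and 169 fell on the deposited scale, 516 and 404 after median-of-ratios scaling, 510 and 404 after TMM (trimmed mean of M-values), 440 and 254 after quantile normalization, and 842 and 484 on TPM over protein-coding genes. The 3 receptor calls, all rises, were also made after median-of-ratios scaling, TMM and protein-coding scaling, and quantile normalization left Tlr13 and Tlr8.

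**Figure D2:**
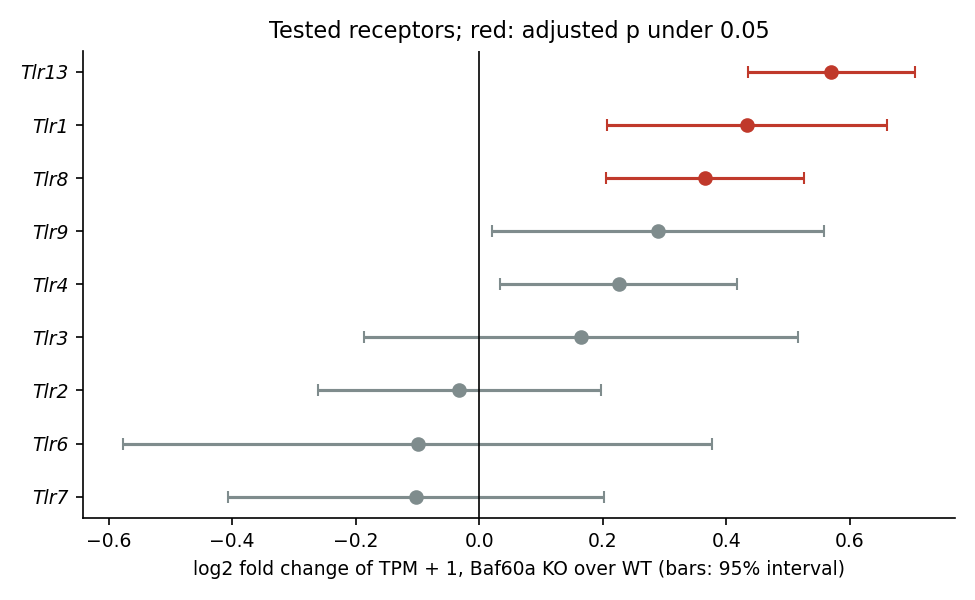
log2 fold change of TPM + 1, Baf60a KO over WT, for the 9 tested receptors, with 95% intervals from limma; red marks an adjusted p under 0.05. Tlr13, Tlr1 and Tlr8 are called at 0.57, 0.43 and 0.37, and the intervals of Tlr3, Tlr2, Tlr6 and Tlr7 include 0.

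Among the endosomal receptors Tlr13 and Tlr8 rose, and Tlr9, Tlr3 and Tlr7 did not pass. Tlr13 in mice recognises a conserved stretch of bacterial ribosomal RNA and has no counterpart in humans. The gene lies on mm10 chromosome X, 106143204 to 106160493, plus strand. It had 38.2, 35.2, 33.6 and 34.8 TPM in Baf60a KO replicates 1 to 4, against 24.5, 24.6, 21.5 and 23.6 TPM in WT replicates 1 to 4. All KO libraries lay well above all WT libraries, with means of 35.4 ± 1.95 TPM in KO and 23.5 ± 1.45 TPM in WT (SD, n = 4 each). The log2 fold change was 0.57 (SE 0.060, 95% interval 0.43 to 0.71, limma adjusted p = 0.00275). The call was made in 20 of 20 other fits.

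Tlr8 lies beside Tlr7 on chromosome X (167242696 to 167264329, minus strand) and encodes a receptor for breakdown products of single-stranded RNA, best described in humans. It had 8.78, 7.34, 8.32 and 8.47 TPM in Baf60a KO, against 6.63, 5.99, 5.77 and 6.22 TPM in WT. The lowest KO library lay above the highest WT library. Means were 8.23 ± 0.622 TPM in KO and 6.15 ± 0.368 TPM in WT (SD, n = 4 each), and the log2 fold change was 0.37 (SE 0.071, 95% interval 0.21 to 0.53, limma adjusted p = 0.0276). The call was lost without KO replicates 1, 3 or 4 (limma adjusted p = 0.0747, 0.0773 and 0.0877) and without WT replicates 2 or 4 (0.0548 and 0.0692). It was also lost without WT replicates 3 and 4 together (0.0813) and with no filter on low values (0.0577), and the sign was the same in each of these fits.

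Tlr7, which detects single-stranded RNA and guanosine, occupies 167304929 to 167330558 on the same strand as Tlr8. It had 6.36, 5.53, 8.17 and 6.30 TPM in Baf60a KO, against 5.65, 7.56, 8.56 and 6.85 TPM in WT. The groups overlapped, and KO replicate 3 and WT replicate 3 were the highest of their groups. The log2 fold change was -0.10 (95% interval -0.41 to 0.20, limma adjusted p = 0.729). The difference Tlr8 minus Tlr7 on the log2(TPM + 1) scale, taken within each library, averaged 0.29 ± 0.18 in KO and -0.18 ± 0.29 in WT (SD, n = 4 each). The gap between groups was 0.47 (exact two-sided permutation p = 0.0571, 0.0952 adjusted over 5 such differences), and KO replicate 3 lay below WT replicate 1. No stretch of 51 bases, the read length, was shared by transcripts of Tlr8 or Tlr7 with any other annotated gene.

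Tlr9, a receptor for unmethylated CpG DNA (chromosome 9, 106222598 to 106226883, plus strand), had 6.08, 6.42, 5.62 and 6.76 TPM in Baf60a KO, against 6.12, 4.92, 3.77 and 5.02 TPM in WT. WT replicate 1 lay among the KO libraries and WT replicate 3 was the lowest of all. The log2 fold change was 0.29 (95% interval 0.02 to 0.56), and the limma adjusted p of 0.192 did not pass. Tlr3, which binds double-stranded RNA, had 2.08, 1.81, 3.28 and 2.11 TPM in KO, against 1.69, 2.57, 1.91 and 1.61 TPM in WT. The groups overlapped and the log2 fold change was 0.16 (limma adjusted p = 0.595). The annotated gene Gm45542 lies on the opposite strand across part of Tlr3, and 5.26% of the stretches of 51 bases in Tlr3 transcripts also occurred there, so the Tlr3 value may hold reads of both.

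Among the surface receptors Tlr1 rose and Tlr2, Tlr6 and Tlr4 did not pass. Tlr2 pairs with Tlr1 to bind triacylated bacterial lipopeptides and with Tlr6 to bind diacylated ones. Tlr1 (chromosome 5, 64924679 to 64933563, minus strand) had 4.06, 4.11, 3.70 and 5.12 TPM in Baf60a KO, against 3.20, 2.80, 2.98 and 2.52 TPM in WT. KO replicate 4 was the highest and WT replicate 4 the lowest, and the groups did not overlap. Means were 4.25 ± 0.610 TPM in KO and 2.88 ± 0.288 TPM in WT (SD, n = 4 each). The log2 fold change was 0.43 (SE 0.0998, 95% interval 0.21 to 0.66, limma adjusted p = 0.0421), closer to the threshold than those of Tlr13 and Tlr8. The call held without WT replicate 1 (0.0481) and was lost when any other single library was left out, with limma adjusted p from 0.0647 without WT replicate 3 to 0.105 without WT replicate 4. It was also lost without WT replicates 3 and 4 (0.114), with no filter on low values (0.105) and after quantile normalization (0.0676), each time with the same sign.

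**Figure D3:**
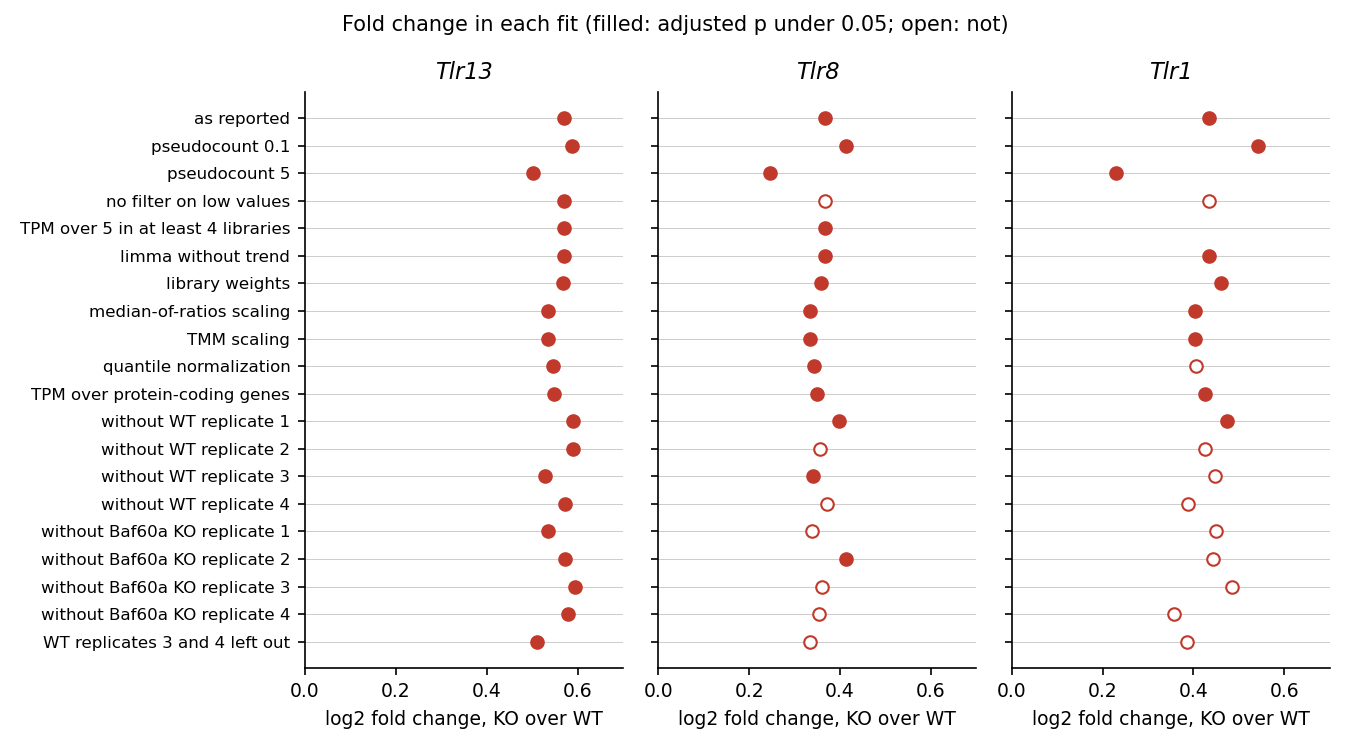
log2 fold change, Baf60a KO over WT, of Tlr13, Tlr8 and Tlr1 as reported and in the other fits without a replicate term; filled points have an adjusted p under 0.05 and open points do not. Tlr13 is filled in each fit, while Tlr8 is open in 7 and Tlr1 in 10 of the fits plotted.

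Tlr2 (chromosome 3, 83836272 to 83841767, minus strand) had 2.66, 2.78, 3.76 and 2.96 TPM in Baf60a KO, against 2.81, 3.16, 3.46 and 3.03 TPM in WT. The groups overlapped throughout, and the log2 fold change was -0.03 (95% interval -0.26 to 0.20, limma adjusted p = 0.905). Tlr6 (chromosome 5, 64952031 to 64960097, minus strand) had 6.82, 7.85, 5.04 and 7.17 TPM in KO, against 6.31, 11.4, 7.05 and 5.16 TPM in WT. WT replicate 2 was the highest library, and the SD of Tlr6 in WT (2.74 TPM) was larger than in KO (1.199 TPM). The log2 fold change was -0.10 (95% interval -0.58 to 0.38, limma adjusted p = 0.842), an interval wider than that of any other tested receptor.

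Tlr1 and Tlr6 are neighbours with closely similar coding sequences, so the way reads were shared out can touch both values. Of the stretches of 51 bases in annotated transcripts, 15.2% of those of Tlr1 and 12.1% of those of Tlr6 also occurred in another gene, and the 2 coding sequences alone had 448 such stretches in common. The same share was 0% for Tlr13, Tlr8, Tlr7, Tlr9, Tlr2 and Tlr5 and 0.198% for Tlr4. The longest run common to both coding sequences spans 229 bases, at chr5:64925537-64925765 in Tlr1 and chr5:64953828-64954056 in Tlr6 (GRCm38, the assembly of mm10, minus strand). It is shown because a read inside it cannot be assigned by its own sequence. Reads were paired, so a mate outside the run may still place the pair.
Tlr1 and Tlr6 common run: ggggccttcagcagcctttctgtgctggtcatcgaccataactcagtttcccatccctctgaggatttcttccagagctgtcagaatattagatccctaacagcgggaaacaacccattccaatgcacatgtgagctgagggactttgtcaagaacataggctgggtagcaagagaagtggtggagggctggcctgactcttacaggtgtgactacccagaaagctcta
Tlr1 and Tlr6 together had 10.9, 12.0, 8.74 and 12.3 TPM in Baf60a KO, against 9.51, 14.2, 10.03 and 7.68 TPM in WT, and the groups overlapped. Tlr1 minus Tlr6 on the log2(TPM + 1) scale within each library averaged -0.55 ± 0.20 in KO and -1.08 ± 0.43 in WT (SD, n = 4 each). The KO libraries lay above the WT libraries, the lowest KO library only narrowly, with a gap between means of 0.53 (exact two-sided permutation p = 0.0286, the smallest that 4 against 4 allows, and 0.0714 adjusted over the 5 differences). Without single libraries the gap was 0.32 (without WT replicate 2) to 0.63 (without WT replicate 1). The exact two-sided permutation p stayed at 0.0286 without WT replicate 1 or 4. It was 0.0571 to 0.114 without any other single library.

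Tlr4, the receptor that senses lipopolysaccharide together with Ly96 and Cd14, lies on chromosome 4 (66827584 to 66930284, plus strand). It had 6.70, 6.22, 6.88 and 6.03 TPM in Baf60a KO, against 5.50, 6.27, 4.92 and 4.88 TPM in WT. WT replicate 2 lay among the KO libraries and the other 3 WT libraries below them. The log2 fold change was 0.23 (95% interval 0.03 to 0.42), and the limma adjusted p of 0.158 did not pass. Tlr5 (chromosome 1, 182954788 to 182976044, plus strand) had 0.38, 0.20, 0.61 and 0.36 TPM in KO, against 0.27, 0.22, 0.59 and 0.38 TPM in WT, with replicate 3 highest in both groups.

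The promoters of the 3 receptors that rose are printed here to show the sequence at their starts. Each window runs 300 bases across the start annotated by RefSeq (GRCm38.p6), 5′ to 3′ on the strand of the gene: chrX:106143025-106143324 on the plus strand for Tlr13, chrX:167264280-167264579 on the minus strand for Tlr8 and chr5:64933509-64933808 on the minus strand for Tlr1. Capitals mark a match to the PU.1 motif GAGGAAG, PU.1 being the ETS factor that macrophages need for their identity.
Tlr13 promoter: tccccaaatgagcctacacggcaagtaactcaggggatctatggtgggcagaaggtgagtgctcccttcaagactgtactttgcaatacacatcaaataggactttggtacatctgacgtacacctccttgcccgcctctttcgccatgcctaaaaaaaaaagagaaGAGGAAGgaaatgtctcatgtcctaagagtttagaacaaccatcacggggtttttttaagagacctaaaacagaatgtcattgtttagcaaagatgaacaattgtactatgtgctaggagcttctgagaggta
Tlr8 promoter: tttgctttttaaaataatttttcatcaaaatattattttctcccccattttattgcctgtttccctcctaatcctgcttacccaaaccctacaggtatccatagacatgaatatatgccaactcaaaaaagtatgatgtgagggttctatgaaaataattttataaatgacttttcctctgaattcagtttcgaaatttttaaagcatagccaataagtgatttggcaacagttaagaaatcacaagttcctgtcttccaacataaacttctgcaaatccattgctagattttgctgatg
Tlr1 promoter: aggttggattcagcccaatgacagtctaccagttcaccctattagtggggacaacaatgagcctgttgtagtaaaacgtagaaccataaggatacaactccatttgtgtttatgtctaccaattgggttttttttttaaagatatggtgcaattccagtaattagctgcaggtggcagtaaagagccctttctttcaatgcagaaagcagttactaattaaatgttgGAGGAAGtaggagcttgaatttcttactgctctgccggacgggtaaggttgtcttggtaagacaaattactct
The Tlr13 and Tlr1 windows each held 1 such match and the Tlr8 window held 0. On both strands, 13.6% of 32851 mouse promoter windows of the same length held GAGGAAG. The other motifs searched on both strands were the degenerate NF-kappaB consensus (8.46% of windows) and the AP-1 motif TGANTCA (7.81%), and no matches to different motifs overlapped in the windows of the family. Windows of 8 members were searched, 10 windows in all, and Tlr4 and Tlr7 were not analysed. The NF-kappaB motif occurred in the windows of Tlr2 and Tlr3, the AP-1 motif in that of Tlr9, and GAGGAAG also at 2 places in Tlr9. The second window of Tlr1 and the windows of Tlr5, Tlr6 and Tlr8 held no match to the 3 motifs. A match is a description of these letters and not of binding.

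The receptors' partners and signalling genes were described from 71 other genes in 7 lists, of which 64 were tested. In Baf60a KO, 4 rose, 1 fell and 59 did not pass, with a median log2 fold change of 0.04, beside 0.03 for all genes tested. The 5 calls are 7.81% of the 64, against 5.61% of all genes tested. This split depended on scaling, with 2 rising and 4 falling after median-of-ratios scaling or TMM, and 2 rising and 3 falling after quantile normalization. Without WT replicates 3 and 4, 1 rose (Ptpn6) and 1 fell (Tnfaip3, given with the negative regulators), and Ticam1, Lgmn, Ctsb and Map3k8 lost their calls. The lists were chosen with earlier results of these data known.

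None of the 7 tested co-receptors and ligand carriers was called. The scavenger receptor Cd36, a partner of Tlr2 and Tlr6, had 1065 ± 135 TPM in Baf60a KO and 1306 ± 176 TPM in WT (limma adjusted p = 0.195). The nuclear protein Hmgb1, which can carry nucleic acids to receptors once released, had 390 ± 14.6 TPM in KO and 422 ± 31.7 TPM in WT (limma adjusted p = 0.28; SD, n = 4 throughout). Of 12 genes for folding, trafficking and proteolysis of receptors, 2 rose and 10 did not pass. The asparagine endopeptidase Lgmn, which cleaves endosomal receptors, had 992 ± 18.9 TPM in KO and 824 ± 77.4 TPM in WT, a log2 fold change of 0.27 (limma adjusted p = 0.0421). The lysosomal protease Ctsb had 8375 ± 266 TPM in KO and 7239 ± 388 TPM in WT, a log2 fold change of 0.21 (limma adjusted p = 0.0423). Both held their call without WT replicate 1 and lost it when any other single library was left out (limma adjusted p up to 0.119 for Lgmn and 0.123 for Ctsb, without KO replicate 4). Both also lost it after median-of-ratios scaling (limma adjusted p = 0.0507 for Lgmn and 0.0704 for Ctsb), TMM (0.0525 and 0.0729) and without WT replicates 3 and 4 (0.106 and 0.109). Lgmn lost it after quantile normalization too (0.0899), while Ctsb held rank 4 among the tested genes in all 8 libraries, so that scaling makes its values equal by construction.

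None of 5 nucleases that shape nucleic acid ligands was called. The lysosomal exonuclease Pld3 had 563 ± 18.7 TPM in Baf60a KO and 549 ± 46.3 TPM in WT (limma adjusted p = 0.775), and its relative Pld4 had 167 ± 8.30 TPM in KO and 140 ± 12.2 TPM in WT (limma adjusted p = 0.0585). Of 5 tested adaptors, Ticam1 rose. Ticam1 carries the signals of Tlr3 and, from endosomes, of Tlr4, and had 18.9, 19.7, 20.3 and 21.2 TPM in KO, against 16.3, 16.6, 14.7 and 14.5 TPM in WT. The groups did not overlap, and the log2 fold change was 0.35 (limma adjusted p = 0.0221). The call was lost without WT replicate 4 (0.0624) and without KO replicates 2, 3 or 4 (0.0638, 0.0655 and 0.0756), and also without WT replicates 3 and 4 together (0.0661). Myd88, an adaptor of nearly all members of the family, had 21.6 ± 1.23 TPM in KO and 21.4 ± 0.616 TPM in WT (limma adjusted p = 0.939). Pik3ap1, which links receptors to phosphoinositide kinase, had 88.7 ± 2.89 TPM in KO and 82.1 ± 8.94 TPM in WT (limma adjusted p = 0.409).

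Of 20 kinases and ubiquitin ligases, Map3k8 fell and 19 did not pass. Map3k8, the kinase that couples these receptors to the ERK pathway, had 10.7, 10.3, 10.02 and 10.1 TPM in Baf60a KO, against 13.4, 11.8, 12.3 and 11.7 TPM in WT. All KO libraries lay below all WT libraries, and the log2 fold change was -0.24 (limma adjusted p = 0.0477). The call was lost whichever single library was left out, with limma adjusted p from 0.0627 without WT replicate 2 to 0.129 without KO replicate 4. Leaving out WT replicates 3 and 4 together gave 0.0822. The ubiquitin-conjugating pair Ube2n and Ube2v1 had 146 ± 4.32 and 125 ± 6.36 TPM in KO, against 135 ± 6.31 and 119 ± 7.85 TPM in WT (limma adjusted p = 0.165 and 0.543). None of 5 interferon regulatory factors was called. Irf7, which drives interferon genes below Tlr7 and Tlr9, had 119 ± 27.2 TPM in KO and 116 ± 12.8 TPM in WT (limma adjusted p = 0.961), and Irf8, a regulator of the myeloid lineage, had 64.1 ± 4.98 TPM in KO and 76.3 ± 13.3 TPM in WT (limma adjusted p = 0.298).

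Of 10 tested negative regulators, Ptpn6 rose and 9 did not pass. Ptpn6 (SHP-1) is a tyrosine phosphatase that restrains receptor signalling in myeloid cells. It had 54.8, 51.6, 57.6 and 53.7 TPM in Baf60a KO, against 38.1, 38.4, 35.0 and 35.4 TPM in WT. The groups lay far apart, with a log2 fold change of 0.56 (SE 0.051, limma adjusted p = 0.00159), and the call was made in 20 of 20 other fits. Tollip, an adaptor that dampens signalling, had 53.7 ± 1.35 TPM in KO and 54.1 ± 3.30 TPM in WT (limma adjusted p = 0.951). Tnfaip3 (A20), a ubiquitin-editing enzyme that ends NF-kappaB signalling, was chosen after its values were seen. It had 16.1, 16.3, 13.7 and 16.9 TPM in KO, against 25.7, 24.1, 19.03 and 19.05 TPM in WT, with no overlap and a log2 fold change of -0.45 (SE 0.11) that did not pass (limma adjusted p = 0.0520). It was called, with the same sign, in 8 of 20 other fits, among them median-of-ratios scaling, TMM, quantile normalization and the fit without WT replicates 3 and 4. Irak3, of the same list, was also chosen after its values were seen and went the other way. It had 5.23, 4.95, 5.08 and 5.30 TPM in KO, against 4.55, 4.10, 3.92 and 3.91 TPM in WT, with no overlap. Its log2 fold change of 0.26 (SE 0.066) did not pass (limma adjusted p = 0.0548), and it was called in 3 of 19 other fits. The deubiquitinase Otulin had 47.5 ± 2.32 TPM in KO and 48.5 ± 3.91 TPM in WT (limma adjusted p = 0.854).

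**Figure D4:**
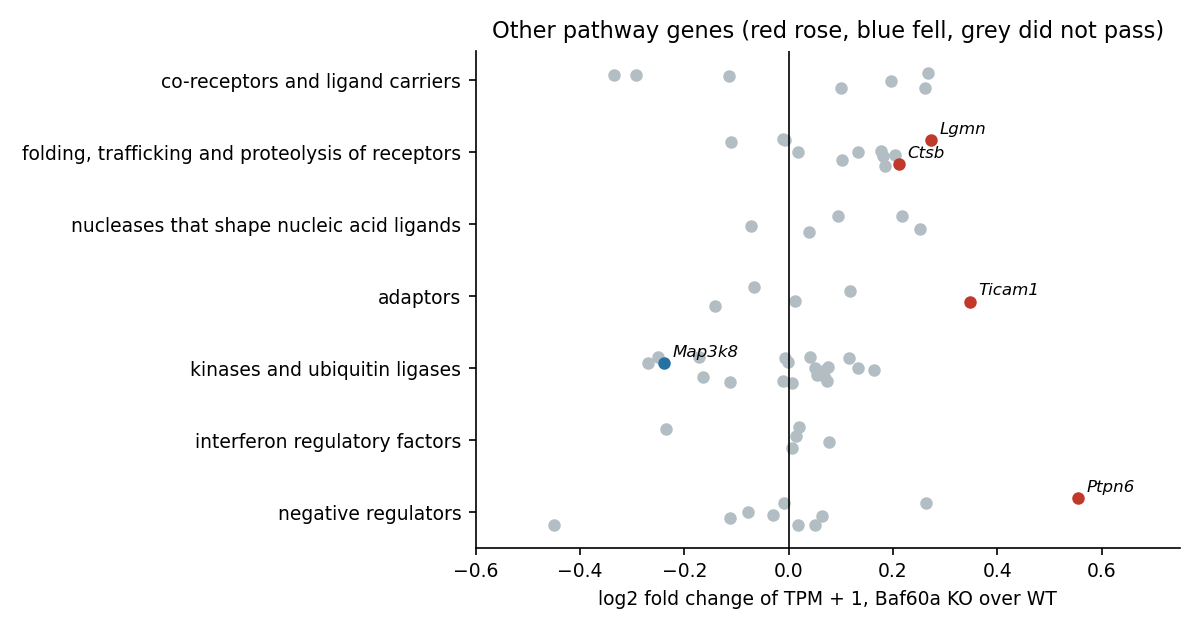
log2 fold change of TPM + 1, Baf60a KO over WT, of the 64 tested pathway genes in 7 lists, with 1 point per gene. Ptpn6 (0.56), Ticam1 (0.35), Lgmn (0.27) and Ctsb (0.21) are red and rose, Map3k8 (-0.24) is blue and fell, and the 59 grey genes did not pass.

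Markers of cell types were compared between the groups by the same test. Of all genes tested, 4.40% were called higher in Baf60a KO and 1.21% lower, and 11.9% had all KO libraries above all WT libraries. All 6 macrophage markers had log2 fold changes above 0 (0.17 to 0.44). Of these, 2 rose, Cd68 (0.29) and Itgam (0.44), and 4 did not pass. Adgre1, Mertk and Fcgr1 overlapped between the groups, and Csf1r, Cd68 and Itgam did not. The summed level of the 6 was 2303 to 2401 TPM in Baf60a KO and 1796 to 2204 TPM in WT, mostly Cd68 (mean 1791 TPM in KO and 1472 TPM in WT). In bulk RNA, a change in the number of cells of a type and a change in RNA per cell cannot be told apart. Of 7 tested stromal markers, 4 rose (Col1a1, Col3a1, Pdgfrb and Thy1), with a summed level over the list of 3948 to 4241 TPM in KO and 3234 to 3628 TPM in WT. That sum was mostly Col1a1 and Col1a2, while Dcn had 3.96 ± 0.610 TPM in KO and 5.92 ± 2.36 TPM in WT and Pdgfra 11.8 ± 1.05 TPM in KO and 11.2 ± 0.618 TPM in WT (SD, n = 4 each), and neither passed. Lum was under 1 TPM and not tested. Of 5 tested neutrophil markers 0 were called, and all 5 had log2 fold changes below 0 (-0.48 to -0.01). Ly6g, Elane and Mpo were too low to be tested. Their means were 0.54, 0.435 and 0.70 TPM in KO, against 0.13, 0.325 and 0.87 TPM in WT, so Ly6g and Elane were higher in KO. The 8 listed neutrophil markers summed to 150 to 242 TPM in KO and 199 to 293 TPM in WT. The neutrophil sums of the groups overlapped, and the macrophage and stromal sums did not. Plasmacytoid dendritic cell markers summed to 24.3 to 26.1 TPM in KO and 23.3 to 26.6 TPM in WT, mostly Tcf4, and conventional dendritic cell markers to 1.61 to 2.23 TPM in KO and 1.93 to 2.35 TPM in WT. The part of stromal and neutrophil content in the rise of Tlr13, Tlr8 and Tlr1 was not tested, and values relative to the macrophage markers follow.

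Relative to the mean log2(TPM + 1) of the 6 macrophage markers in the same library, Tlr13 was at -1.82 ± 0.054 in Baf60a KO and -2.10 ± 0.092 in WT (SD, n = 4 each). The KO libraries lay above the WT libraries, with a difference of 0.28 (exact two-sided permutation p = 0.0286, 0.0714 adjusted over the 5 differences). Without single libraries this difference was 0.24 to 0.31, and the groups did not overlap in any of the 8 cases. The same measure gave 0.08 for Tlr8 (exact p = 0.229, adjusted 0.229) and 0.14 for Tlr1 (exact p = 0.143, adjusted 0.179), and for both the groups overlapped. By construction this measure takes the mean shift of the markers, 0.29, off the fold change of any gene. With 4 libraries against 4 and 5 differences, an adjusted p under 0.05 would have needed at least 3 of them at the smallest possible p.

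**Figure D5:**
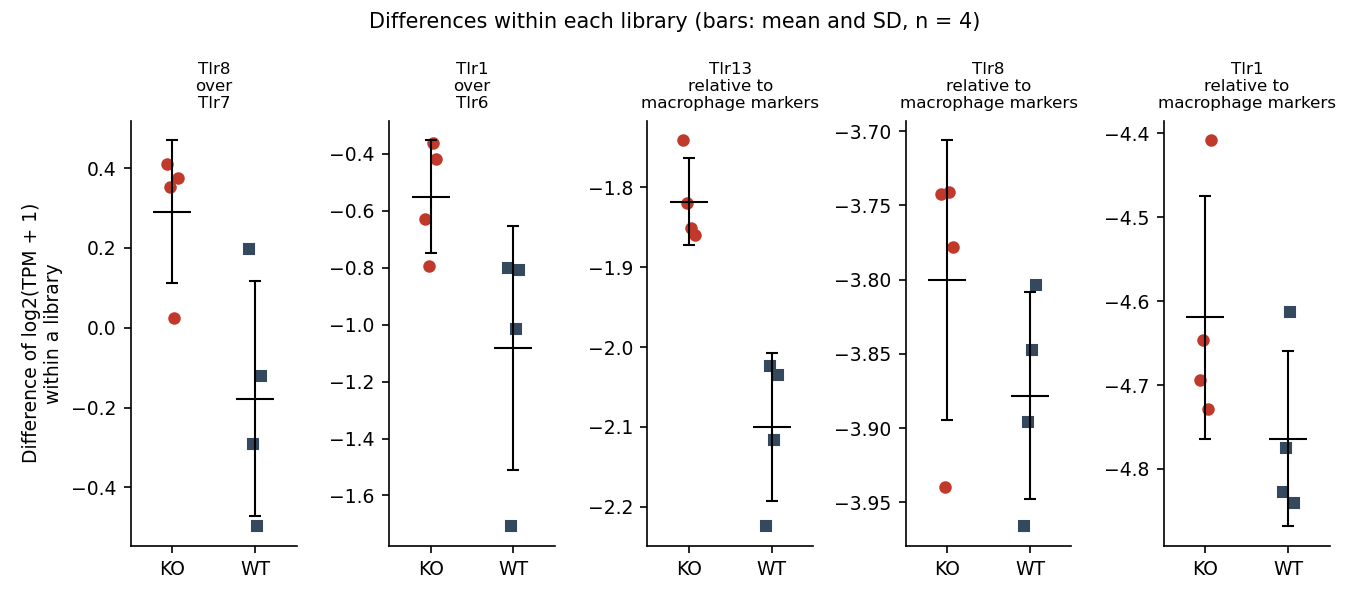
Differences of log2(TPM + 1) within each library for 4 Baf60a KO libraries (circles) left of 4 WT libraries (squares), with mean and SD; each panel has its own axis. KO lies above WT without overlap for Tlr1 over Tlr6 and for Tlr13 relative to macrophage markers, and the groups overlap in the other 3 panels.

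The genes whose levels moved most like Tlr13 over the 8 libraries, by the smallest root mean square difference of log2(TPM + 1) centred on each gene's mean, were Tifab (0.039), C3ar1 (0.052) and Lrmda (0.062). Tifab had 6.08 ± 0.150 TPM in Baf60a KO and 3.83 ± 0.381 TPM in WT. C3ar1, a complement receptor, had 64.9 ± 1.36 TPM in KO and 44.3 ± 3.03 TPM in WT. Lrmda had 11.7 ± 0.707 TPM in KO and 7.96 ± 0.727 TPM in WT (SD, n = 4 each). Each of the 3 had all KO libraries above all WT libraries, as Tlr13 did. That follows from the choice, since genes this close to Tlr13 in all 8 libraries share its gap between groups. The 8 values per gene also share the 2 groups and the scaling of the libraries.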

How the data were processed

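RNA of 8 libraries was sequenced as paired 51 bp reads after preparation with the NEBNext Ultra RNA kit, at an average stated only for the whole series, per the labels' protocols. The build mm10 and the tools bcl2fastq and Salmon 1.2.0 were named, per the submitters' processing notes. No source used here gives the transcript annotation, the strand setting or the summing to genes. The authors deposited 1 TPM value per gene and library, a unit read from the values, since each library sums to 1000000 within rounding. TPM keeps no depth, so no counting interval is given, and large changes in some transcripts move all others.

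Groups and replicate numbers came from the sample titles. Symbols and coordinates came from GENCODE M21, which matched 55240 of 55421 identifiers. Genes above 1 TPM in at least 4 libraries (13933) were compared as log2(TPM + 1), a scale that understates changes of low genes, with limma 3.58.1 in R 4.3.3, a mean-variance trend and group as the only term. P-values were adjusted by Benjamini-Hochberg over all genes tested, and genes were called, and said to rise or fall, at an adjusted p under 0.05. The fitting was tested on simulated data. Within-library differences were tested in Python 3 by exact permutation of libraries.

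Members and lists were chosen with earlier results of these data known. Named by rule were all members, Smarcd1, called pathway genes and the 2 most abundant others of lists with fewer than 2 calls. The 3 genes most like the member with the smallest p were also named by rule. Tnfaip3 and Irak3 were added after their values were seen. Alternatives covered the pseudocount, filters, variance model, library weights, scaling, a replicate block and libraries left out. The 5 within-library differences were chosen after the data were seen. A marker of 1 further cell type is not reported here.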

Additional observations from a re-analysis of the deposited data

Results flagged for a closer look

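Single libraries that stood apart from the other 3 of their group were looked for in 62 groups of 4 libraries (31 genes named by rule). Dixon's criterion was used, which flags about 1 group in 20 by chance. It flagged 2. Irf8 had 56.65 TPM in Baf60a KO replicate 3, against 66.21 to 67.26 TPM in the other 3 KO libraries. Pld3 had 618.41 TPM in WT replicate 1, against 520.13 to 531.39 TPM in the other 3 WT libraries. Neither gene was called in any comparison of the report, and no Toll-like receptor library stood apart by this criterion.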

How the results depend on the processing

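Tlr13 and Ptpn6 were called in all 20 alternatives, with log2 fold changes of 0.50 to 0.60 and 0.50 to 0.58. The number of receptors called was 3 in the report, 1 with no filter on low values, 1 without WT replicates 3 and 4, 1 with a replicate block, and 1 to 3 without single libraries. The number of pathway genes called was 5 in the report, 2 with no filter, 8 above 5 TPM, 9 with library weights, 12 on TPM over protein-coding genes, 2 with a replicate block (Ptpn6, and Cd36 with a limma adjusted p of 0.0350, which was not called in the report), 2 without WT replicates 3 and 4 (Ptpn6 and Tnfaip3), and 1 to 10 without single libraries. Over all genes it was 782 in the report, 364 with no filter (27510 genes tested), 1326 on TPM over protein-coding genes, 209 with a replicate block, 372 without WT replicates 3 and 4, and 156 to 679 without single libraries. Where filters or left-out libraries change how many genes or samples are tested, the adjusted p moves for that reason too, and otherwise the cause was not tested. In the order of levels, 5 of 10 members kept their rank within WT. Deviations of same-numbered KO and WT libraries correlated at -0.113 to 0.0124, and those of differently numbered ones at -0.133 to 0.107. No shared effect of the replicate number was visible, and the labels do not say whether libraries were paired. With the replicate block Tlr13 kept its call (limma adjusted p = 0.0192), and Tlr8 (0.0639), Tlr1 (0.124), Ticam1 (0.0841), Lgmn, Ctsb and Map3k8 lost it. With WT replicates 3 and 4 left out, exact tests cannot go below 0.0667. Signs turned in 23 cases, each for a gene not called on either side: Tlr2 at 0.0076, 0.013 and 0.013 (without WT replicate 3, KO replicate 1, and WT replicates 3 and 4), Tlr6 at 0.10 and 0.014 (without WT replicate 2 and KO replicate 3; lowest -0.24 among single libraries left out), and Pld3 at -0.027 (without WT replicates 3 and 4). Myd88 turned to -0.024, -0.024, -0.020 and -0.013 under median-of-ratios scaling, TMM, quantile normalization and protein-coding scaling, and to -0.0059 and -0.021 without WT replicate 2 and KO replicate 3 (highest 0.038). Irf7 turned to -0.0014 with library weights, to -0.017, -0.017 and -0.0060 under median-of-ratios, TMM and protein-coding scaling, and to -0.023 and -0.12 without WT replicate 2 and KO replicate 3 (highest 0.12). Tollip turned to 0.020, 0.012 and 0.0087 (lowest -0.035) and Otulin to 0.0092 and 0.0049 (lowest -0.083) without single libraries. The depth of single libraries is unknown, so it could not be said how far low depth limits receptors of a few TPM such as Tlr3 and Tlr5.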
